A study of Mus musculus with 78 samples.

Results

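The comparison described here is ZFP143 loss in cells that had been differentiated with retinoic acid (RA). Of the 55401 genes in the RA count table, 16758 exceeded 10 counts in 2 or more of the 4 libraries harvested after RA, and these genes were taken as the members. All groups were E14TG2a mouse embryonic stem cells with an FKBP degron, an HA tag and a cleaved GFP knocked into the stop codon of both Zfp143 alleles, in homozygous clones chosen for their response to the degrader, so every control carried the tagged protein as well. Cells in 2i medium received DMSO or 500 nM dTAG-V1 for 24 h and were either harvested (DMSO and dTAG before RA) or moved for another 24 h to N2B27 medium with all-trans RA in the continued presence of DMSO or dTAG-V1 (DMSO RA and dTAG RA), which makes 48 h of depletion at harvest. Each group had 2 biological replicates of stranded poly(A) RNA-seq, and whether these came from separate clones is not given in the sources used here. Separate libraries of the study, with 48 h of dTAG-V1 in stem cells without RA and with 2 h of dTAG-V1 followed by labelling of nascent RNA (TT-seq), served as references. The question was which genes depended on ZFP143 in the differentiating cells.

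ZFP143 is a zinc finger transcription factor that binds promoters through the SBS element and activates many housekeeping genes, among them nuclear genes for mitochondrial proteins. RA enters the nucleus on the carrier CRABP2 and binds RAR receptors, which sit with their RXR partners on paired sites. It switches on the early 3′ Hox genes and induces its own breakdown by the CYP26 enzymes. In stem cells RA shuts off the naive pluripotency network and drives neural and posterior fates. The dTAG system removes the protein and not the transcript, so the mRNA of Zfp143 does not check the treatment.

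The 4 libraries after RA held between 13890761 and 21650358 counts, and the common biological coefficient of variation (BCV) between replicates of the RA table was 5.93%. The RA label was checked on Cyp26a1 and Hoxb1, which had at most 2 counts in any library before RA and between 22.9 and 286 CPM (counts scaled to library size and TMM factor) in each library after RA. The 7 naive stem cell markers summed to 5637 to 6701 CPM before RA, to 986 and 664 CPM in DMSO RA, and to 1459 and 1244 CPM in dTAG RA. The 7 markers of RA-treated neural progenitors summed to 70.3 to 88.0 CPM before RA, to 558 and 644 CPM in DMSO RA and to 254 and 274 CPM in dTAG RA. Markers of other cells were scarcer. After RA the 6 primitive endoderm markers summed to 35.4 and 38.0 CPM in DMSO RA and 50.7 and 50.4 CPM in dTAG RA, the 5 mesoderm markers to 12.6 to 16.5 CPM, the 4 trophoblast markers to 4.63 to 6.09 CPM, and the 4 fibroblast markers to 24.2 and 29.7 CPM in DMSO RA and 56.3 and 57.9 CPM in dTAG RA. The 100 most abundant genes took 16.8% and 17.0% of counts in DMSO RA and 12.8% and 12.5% in dTAG RA. The part of these shifts in the results below was not tested, and in bulk RNA fewer cells of a type and less RNA per cell cannot be told apart.

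Loss of ZFP143 in RA-treated cells lowered 1328 genes (7.92% of the 16758 tested) and raised 1696 (10.1%). A gene was called when its fold change exceeded 1.5 by edgeR glmTreat at a Benjamini-Hochberg adjusted p under 0.01. The genes that fell were well expressed and fell by a median of 1.29 on the log2 scale, from a median of 42.8 to 16.9 CPM. The genes that rose were mostly scarce ones, at a median of 1.95 CPM in DMSO RA and 6.92 CPM in dTAG RA, and rose by a median of 1.71 on the log2 scale. Among the third of genes with the lowest mean level, 4.99% fell and 17.1% rose, and among the third with the highest level, 10.4% fell and 3.78% rose. More than a 2-fold change was fitted for 1013 of the genes called lower and 1556 of those called higher. Over all genes tested the median log2 change was 0.01, and both dTAG RA libraries lay on the same side of both DMSO RA libraries for 80.2% of genes, so separation of the replicates is not by itself a mark of a called gene. Scaling by library size alone, which moves the median of all genes to 0.24, gave 815 lower and 2516 higher genes, 24.5% lower in place of 43.9%. DESeq2 gave 800 lower and 797 higher, 50.1% lower, and the quasi-likelihood test at an adjusted p of 0.05 and a log2 change above 0.5 gave 3205 and 3737, so the excess of higher genes was not seen with DESeq2. Counts for gene lists are therefore given below with their lowest and highest value over the alternatives. The filter itself admitted 183 genes through the DMSO RA libraries only, of which 79 were called lower, and 763 through the dTAG RA libraries only, of which 314 were called higher.

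The same genes gave fewer calls before RA, with 586 lower (3.5%) and 432 higher (2.58%) after 24 h of dTAG-V1. Without DMSO before RA replicate 1 or 2, or dTAG before RA replicate 2, the higher count was 267, 244 or 226, and scaling by library size alone gave 481 lower and 617 higher, 43.8% lower in place of 57.6%. The quasi-likelihood thresholds gave 1330 lower and 2301 higher before RA. After 48 h of dTAG-V1 without RA, 1114 genes were lower (8.03% of 13872 tested) and 1481 higher (10.7%), or 736 and 2073 when scaled by library size alone, 26.2% lower in place of 42.9%, and 759 and 779 with DESeq2. The effect of dTAG was more negative after RA than before RA for 3073 genes (18.3%) and more positive for 2106 (12.6%), at an edgeR quasi-likelihood adjusted p under 0.05 and a log2 difference above 0.5, called the interaction below. With library size alone these counts were 2409 and 2583, 48.3% in place of 59.3%, and with DESeq2 2176 and 2138. Against the 48 h effect without RA, 2520 genes were more negative after RA (15%) and 2199 more positive (13.1%). RA, the medium and a further 24 h of depletion separate the libraries before and after RA and cannot be told apart in the first of these difference tests. The second holds the time of depletion and still joins RA with the medium and the experiment. In TT-seq after 2 h, 435 genes were lower (2.43% of 17870) and 30 higher (0.168%). Leaving out TT-seq DMSO replicate 2, 2 h replicate 1 or 2 h replicate 2 left 187, 102 or 105 lower and 12, 11 or 10 higher.

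Zfp143 mRNA itself was higher in dTAG RA. It measured 34.4 and 34.7 CPM in DMSO RA and 86.3 and 89.7 CPM in dTAG RA, a log2 change of 1.35 ± 0.09 (SE, n = 2 per group, edgeR glmTreat adjusted p = 4.08e-08). The 2 groups did not overlap, and the log2 change before RA was 1.36. The interaction of -0.01 did not pass (adjusted p = 0.963).

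The strongest decreases were of genes that carry a ZFP143 peak. Of the 10 genes with the greatest called decrease (chosen among genes with a mean of at least 100 counts), 8 had a peak of the study's stem cell ChIP-seq list at the promoter. Mmachc, which processes vitamin B12, measured 30.9 and 30.3 CPM in DMSO RA and 0.375 and 0.404 CPM in dTAG RA, a log2 change of -6.27 ± 0.20 (adjusted p = 3.73e-16). The depleted libraries held 8 and 9 counts of it, and the remaining level was 1.29% of the control. Zc4h2, a zinc finger gene needed for motor neuron development, went from 11.2 and 11.5 CPM to 0.0937 and 0.269 CPM, which were 2 and 6 counts. Acadvl, the very long chain acyl-CoA dehydrogenase of fatty acid oxidation, went from 64.8 and 56.6 CPM to 2.06 and 1.44 CPM (log2 change -5.12 ± 0.15, adjusted p = 1.62e-16). Tmod2, a neuronal tropomodulin, was at 9.10 and 6.95 CPM in DMSO before RA, at 40.3 and 43.7 CPM in DMSO RA and at 1.17 and 1.44 CPM in dTAG RA (log2 change -5.00 ± 0.17). The other bound genes of the 10 were Rnaseh2c, a subunit of RNase H2 (-4.97), Mpi, which makes mannose 6-phosphate (-4.58), Mettl26 (-4.93) and B230118H07Rik (-5.38). In each of these 8 genes the 2 depleted libraries lay far below both controls.

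The other 2 of the 10 greatest decreases had no peak. Ndufa4l2, a mitochondrial protein related to a respiratory chain subunit, measured 41.0 and 42.3 CPM in DMSO RA and 1.03 and 0.987 CPM in dTAG RA (log2 change -5.36 ± 0.16). Before RA it fell by 3.54 on the log2 scale, and the interaction of -1.81 was called (edgeR adjusted p = 0.00083). The uncharacterised gene 1500009C09Rik behaved otherwise. It was at 1.76 to 3.34 CPM in the 4 libraries before RA, at 21.1 and 15.5 CPM in DMSO RA and at 0.328 and 0.538 CPM in dTAG RA. Its log2 change was -5.39 ± 0.27 after RA, -0.53 before RA and -0.38 at 48 h without RA, and both tests of the difference were called (interaction -4.86, difference from 48 h -4.93).

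Promoter sequences are shown for 5 of the 8 bound genes, from ZFP143 peaks that hold letters of the SBS element. The stretches below are 30 bases to either side of the motif that a search found in the ZFP143 peak of each gene, read from mm10, with the motif in capitals. The search used ACTACA, the upstream part of the SBS element, and TCCCANNAT, part of its core, on both strands, and each is printed on the strand of the match. The centres of the 5 peaks lie between -76 and 2 bp from the annotated transcript start.
Mmachc, chr4:116708368-116708433, plus strand: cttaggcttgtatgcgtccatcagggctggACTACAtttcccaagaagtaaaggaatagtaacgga
Zc4h2, chrX:95658469-95658534, plus strand: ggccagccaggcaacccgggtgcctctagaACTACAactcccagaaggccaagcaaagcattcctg
B230118H07Rik, chr2:101629054-101629119, plus strand: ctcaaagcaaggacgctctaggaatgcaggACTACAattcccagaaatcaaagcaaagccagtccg
Mpi, chr9:57552775-57552840, minus strand: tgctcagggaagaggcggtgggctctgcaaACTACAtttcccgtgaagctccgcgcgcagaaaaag
Acadvl, chr11:70015432-70015500, minus strand: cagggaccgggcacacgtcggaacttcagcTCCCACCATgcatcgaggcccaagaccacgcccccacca
In the first 4 the capitals are followed within a few bases by ccc, and Acadvl matched through the core letters alone. A match to 6 letters is a description and not a site. The peak of Mettl26 also held ACTACA, near 1 end, and not the core letters. This match is not printed above, and no ccc followed it within a few bases. The peaks of Tmod2 and Rnaseh2c held neither motif, which says only that these letters are not in those windows. ACTACA was in 41.3% of all 3189 ZFP143 peaks, in 58.2% of the peaks of bound genes that fell, in 48.5% of those of bound genes without a call and in 39.3% of those of bound genes that rose. It was in 10.3% of 32851 RefSeq promoter windows of 300 bp (GRCm38.p6). TCCCANNAT was in 35.2% of all peaks, in 35.3%, 26.6% and 28.6% of the same 3 classes and in 5.11% of the promoter windows. These shares are descriptions, and peaks (median length 401 bp) and promoter windows differ in length.

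**Figure D1:**
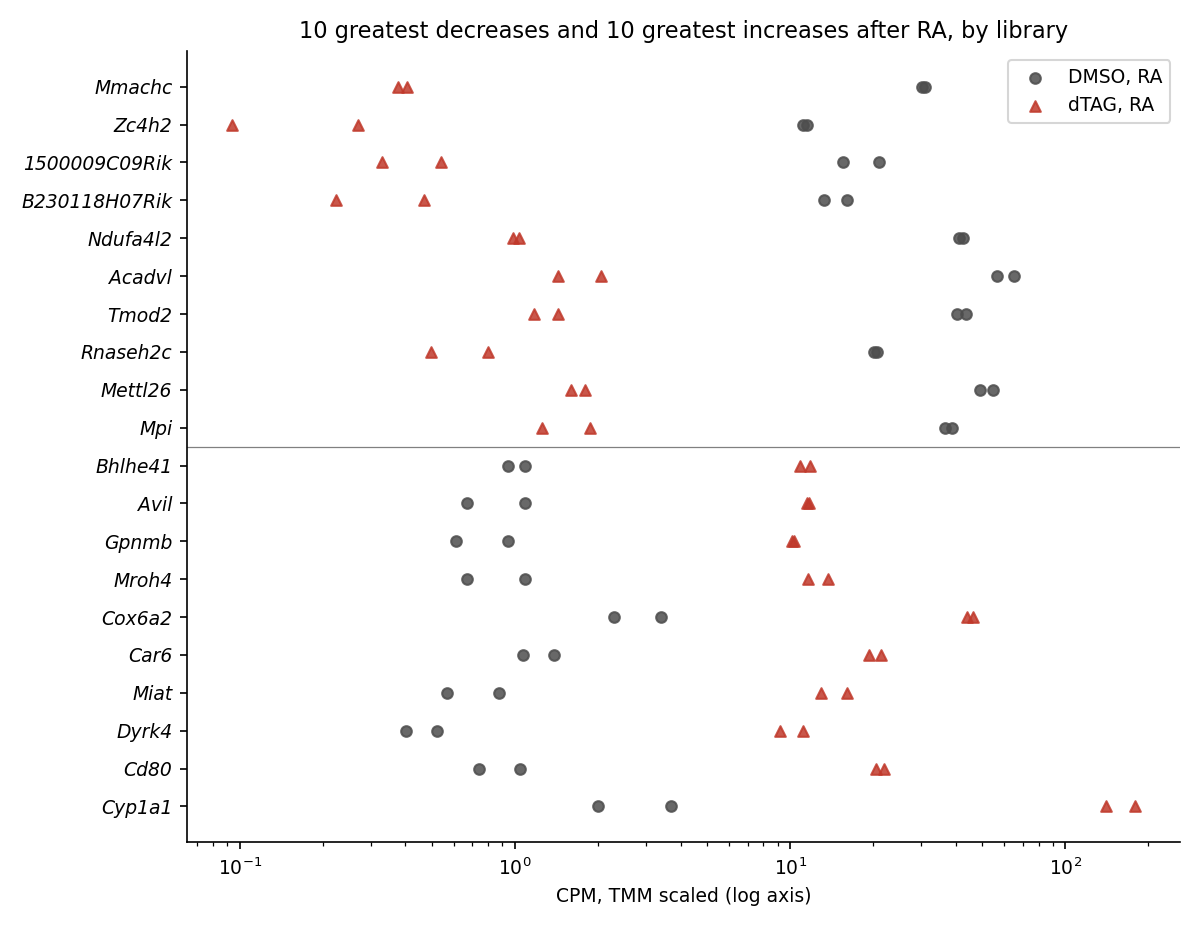
Levels after RA of the 10 most decreased and the 10 most increased genes, in CPM on a log axis, with 1 point per library (grey circles DMSO RA, red triangles dTAG RA). The groups are apart for every gene, by construction of the list, and the decreased genes start from 11.2 to 64.8 CPM while all increased genes start under 4 CPM.

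Among called genes with a mean of at least 100 counts, the 10 greatest increases all started from little RNA in the control. None had a ZFP143 peak at the promoter, which is common, since only 13.2% of the annotated genes tested had a peak. Cyp1a1, the cytochrome P450 that is the classical target of the aryl hydrocarbon receptor, rose from 2.00 and 3.69 CPM to 140 and 179 CPM (log2 change 5.89 ± 0.17, adjusted p = 1.62e-16). Cd80, a co-stimulatory ligand for T cells, rose from 1.04 and 0.738 CPM to 20.5 and 21.9 CPM (4.52 ± 0.19). Cox6a2, the muscle form of a cytochrome c oxidase subunit, rose from 3.39 and 2.28 CPM to 46.3 and 43.8 CPM (3.94 ± 0.15). In each of the 3 the depleted libraries were close together and far above both controls. Dyrk4, a protein kinase, rose by 4.41 on the log2 scale, the long non-coding RNA Miat by 4.39, Car6, a secreted carbonic anhydrase, by 4.01, Mroh4 by 3.78, Gpnmb, a glycoprotein of lysosomes and melanosomes, by 3.77, the actin-binding protein gene Avil by 3.65, and Bhlhe41, a circadian repressor, by 3.46. All 10 were also called higher at 48 h without RA.

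A ZFP143 peak lay at the promoter of 13.2% of the annotated genes tested (2217 of 16743). Among genes that fell after RA the share was 32.3% (428 of 1327, 95% Wilson interval 29.8% to 34.8%), against 12.4% of genes without a call and 4.96% of genes that rose (84 of 1692, 4.03% to 6.11%). The fall thus comprised bound genes and a larger number of genes without a peak. The genes that fell both before and after RA were 317, and 272 of them (85.8%) had a peak. A further 992 genes fell after RA with no call before, and 156 of these (15.7%) had a peak. Peaks were called in stem cells, and binding after RA was not analysed here. The bound genes as a set, defined by the peaks alone, fell by a median of 0.24 on the log2 scale after RA and 0.31 before RA. Of the 2217 bound genes, 428 were lower after RA and 466 before RA, and the interaction was more positive after RA for 547 of them and more negative for 235 (661 and 177 with library size alone). Over all genes it was more positive for 2106 and more negative for 3073, but for 2583 and 2409 with library size alone. Against 48 h without RA the counts were 549 more positive and 171 more negative.

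**Figure D2:**
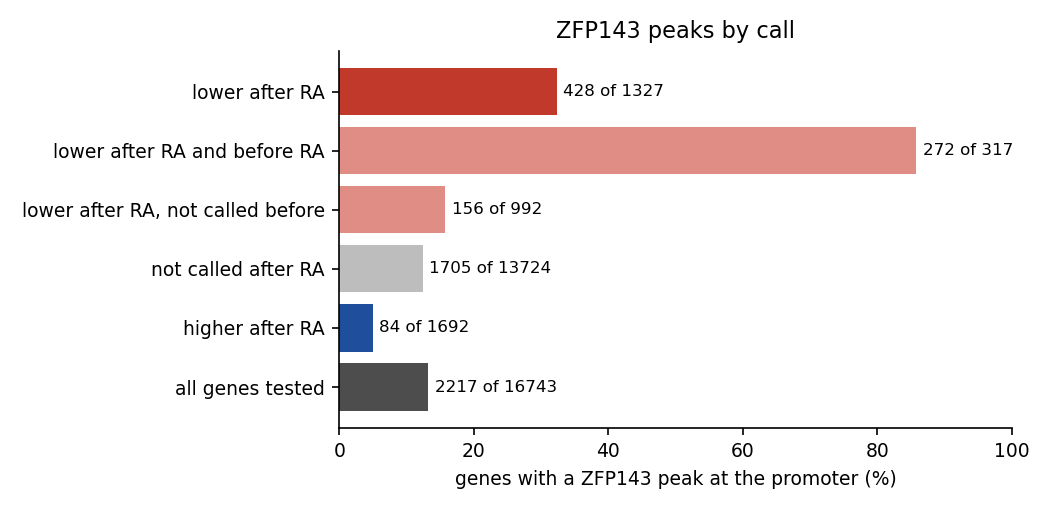
Share of genes with a ZFP143 peak at the promoter, in percent, by the call after RA, with the number of genes beside each bar. The share is 32.3% for genes that fell after RA, 85.8% for those that fell before RA too, 15.7% for those with no call before RA, and 4.96% for genes that rose.

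Usp40 and Pomgnt2 show how far some bound genes differed between the states. Usp40, a ubiquitin peptidase gene, was at 24.1 and 22.7 CPM in DMSO and 0.321 and 0.122 CPM in dTAG before RA, and at 36.7 in both DMSO RA libraries and 5.11 and 6.33 CPM in dTAG RA. It fell by 2.68 ± 0.13 on the log2 scale after RA, and the interaction was 4.09 ± 0.35 (edgeR adjusted p = 5.45e-09). Pomgnt2, which extends the O-mannose glycan of dystroglycan, was at 13.8 and 17.2 CPM in DMSO RA and 5.71 and 6.06 CPM in dTAG RA, a log2 change of -1.38 ± 0.16. Before RA its 2 dTAG libraries had 1 and 4 counts against 4.31 and 4.95 CPM in DMSO, and the interaction was called (3.87, adjusted p = 1.13e-06). In both genes the depleted libraries after RA lay above the depleted libraries before RA.

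The cholesterol synthesis genes fell together in the RA-treated cells. All 19 genes of the list tested were lower after RA (16 to 19 over the alternatives), with a median log2 change of -1.33, and none was called before RA (median -0.05) or at 48 h without RA (median -0.26). The interaction was more negative for all 19, and the difference from 48 h without RA for 18. Hmgcs1, which makes HMG-CoA, measured 966 and 1078 CPM in DMSO RA and 263 and 272 CPM in dTAG RA (log2 change -1.93 ± 0.07, adjusted p = 1.6e-13). The 4 libraries before RA were at 351 to 475 CPM, so both controls lay above that range and both depleted libraries below it. Lss, the lanosterol synthase, went from 363 and 421 CPM to 92.4 and 106 CPM (-1.98 ± 0.08), again below the libraries before RA (151 to 173 CPM). Fdps, the farnesyl diphosphate synthase, went from 15.6 and 15.97 CPM to 4.36 and 4.58 CPM (-1.81 ± 0.14) and was the only list member with a ZFP143 peak. The regulator Insig1 fell by 1.53 and the transcription factor gene Srebf2 by 0.97. The smallest decrease, of Sc5d, was 0.92, a call lost with DESeq2, with library size alone and without DMSO RA replicate 2 or dTAG RA replicate 1. Library size alone also lost the Srebf2 call.

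The sterol element of the Hmgcs1 promoter is shown because the letters searched were in no other window of the list. The window lies on chr13 of GRCm38.p6 just before the annotated start, is taken from RefSeq, and has the letters TCACNCCAC in capitals.
Hmgcs1, chr13:119690184-119690252, plus strand: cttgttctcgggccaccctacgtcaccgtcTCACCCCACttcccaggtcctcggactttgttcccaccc
The letters were found in this 1 of the 13 list members that have a promoter window in the table, and in 1.24% of all windows, both strands searched.

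Glycolysis genes fell as well. Of 24 gene entries tested (Aldoa has 2), 13 were lower after RA and 1 higher (13 to 15 lower and 0 to 1 higher over the alternatives), with a median log2 change of -1.25. Before RA 6 were lower, and at 48 h without RA 12 were lower and 1 higher. Aldoa, the aldolase, measured 1684 and 1861 CPM in DMSO RA and 242 and 224 CPM in dTAG RA (-2.92 ± 0.09, adjusted p = 6.46e-16). It fell by 0.94 before RA and by 1.99 at 48 h, and both difference tests were called (-1.99 and -0.87). Tpi1, the triose phosphate isomerase, fell by 2.50, Pgk1, the phosphoglycerate kinase, by 2.49, Eno1 by 2.46, Ldha, the lactate dehydrogenase, by 2.36, and the log2 change of Pkm was -2.247. The hexokinase genes Hk1 (-0.64) and Hk2 (-0.17) were not called. The neuronal enolase Eno2 rose from 31.8 and 29.4 CPM to 54.6 and 56.0 CPM (0.85 ± 0.09), a call that was lost when any of DMSO RA replicate 2, dTAG RA replicate 1 or 2, or either dTAG replicate before RA was left out (0.80 to 0.89), with DESeq2 (0.89) and with no filter (0.84). None of the 24 entries had a ZFP143 peak at the promoter.

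**Figure D3:**
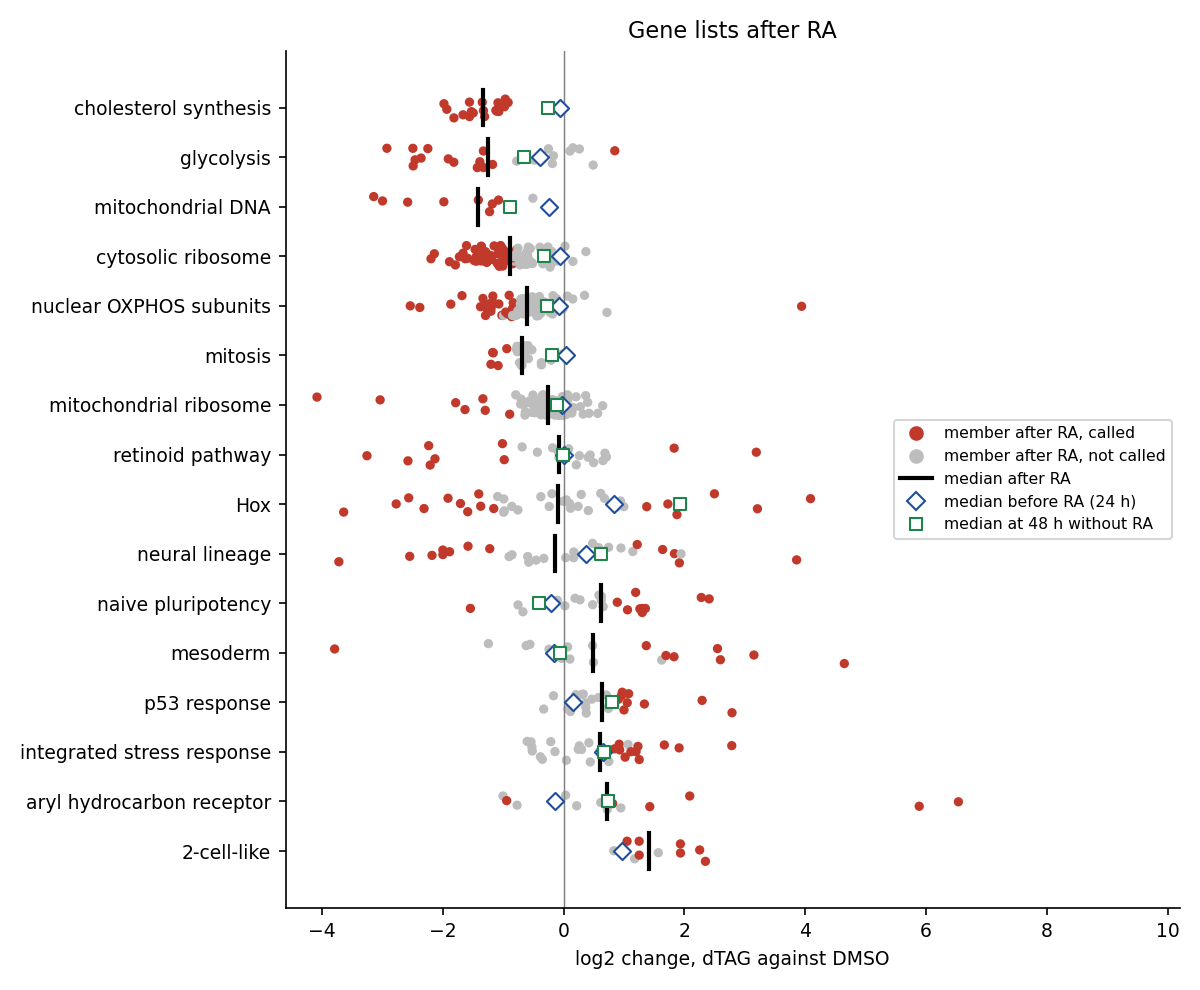
Log2 change of dTAG against DMSO after RA for each gene of 16 lists (red called, grey not called), with the list median after RA (black bar), before RA (blue diamond) and at 48 h without RA (green square). Cholesterol synthesis sits at a median of -1.33 after RA, -0.05 before RA and -0.26 at 48 h without RA, and 2-cell-like genes were not tested at 48 h.

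Transcripts of the mitochondrial genome dropped in the RA-treated cells. Of the 9 mitochondrial DNA genes tested, 8 were lower after RA (5 to 9 over the alternatives), with a median log2 change of -1.41, against none before RA and 5 at 48 h without RA. The other 6 of the 15 listed genes had at most 3 counts in every library and were not tested. mt-Co1, the core subunit of cytochrome c oxidase, measured 10080 and 10480 CPM in DMSO RA and 1343 and 1232 CPM in dTAG RA (-3.00 ± 0.09, adjusted p = 7.7e-16). The 4 libraries before RA were at 7561 to 10160 CPM, so the depleted RA libraries stood apart from all others. mt-Nd5 went from 1744 and 1879 CPM to 303 and 302 CPM (-2.58 ± 0.10) and mt-Nd6, the light-strand gene, from 27.9 and 25.8 CPM to 1.92 and 4.13 CPM (-3.14 ± 0.22). At 48 h without RA mt-Co1 was lower by 1.20 and mt-Nd5 by 1.30 on the log2 scale. The difference from 48 h was called for 6 of the 9, all more negative after RA. In all, transcripts of mitochondrial DNA took 1.62% and 1.81% of counts in DMSO RA and 0.397% and 0.394% in dTAG RA.

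Nuclear genes that serve the mitochondrion were lower in varying numbers. Of 83 nuclear subunits of oxidative phosphorylation, 22 fell and 1 rose (15 to 49 lower and 1 to 2 higher over the alternatives, median -0.61), against 7 and 1 before RA and 18 and 1 at 48 h without RA. Uqcr10, a complex III subunit, went from 80.9 and 72.4 CPM to 13.1 and 13.3 CPM (-2.54 ± 0.09), Cox7c of complex IV from 90.5 and 84.0 CPM to 16.3 and 17.2 CPM (-2.38 ± 0.10), and Atp5j2 of the ATP synthase fell by 1.87. These 3 have ZFP143 peaks and had fallen before RA by 2.92, 3.28 and 1.33. Of 77 mitochondrial ribosomal protein genes 7 fell and none rose (6 to 19 lower and 0 to 2 higher, median -0.25), against 7 before RA and 10 at 48 h without RA, a share near the 7.92% of all genes tested. Mrps25 went from 46.3 and 48.7 CPM to 2.58 and 3.01 CPM (-4.08 ± 0.13), Mrpl54 fell by 3.04 and Mrpl34 by 1.79, each with a peak. Among 36 import and fission genes 4 fell (3 to 11 lower and 0 to 1 higher) beside 7.92% of all genes, and 4 were lower before RA too. They were Timm13 by 2.54, Timm21 by 2.104, the disaggregase Clpb by 1.76 and Tomm7 by 0.84, the last a call lost with DESeq2, with library size alone and when replicate 2 of DMSO RA or of dTAG RA was left out. Of 12 mitochondrial translation factors 3 fell (1 to 5), with Mtrf1, a release factor, at -2.90. None of 21 genes that transcribe or copy mitochondrial DNA was called, and Tfam, the packaging and transcription factor, measured 63.4 and 67.3 CPM in DMSO RA and 59.5 and 54.9 CPM in dTAG RA (-0.19 ± 0.08). Over the alternatives at most 2 of the 21 were lower and at most 4 higher.

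Many cytosolic ribosomal protein genes were lower after RA. Of this list 46 of 80 fell and none rose (34 to 65 lower over the alternatives, median -0.89), against none before RA (median -0.06) and 4 at 48 h without RA (median -0.32). The interaction was more negative for 68 of the 80 and more positive for 1, and the difference from 48 h for 43 and 1. Rpl37a went from 239 and 240 CPM to 52.7 and 52.0 CPM (-2.19 ± 0.07, adjusted p = 8.18e-15) and had 265 to 378 CPM before RA. Rps29 fell by 2.14, Rps25 by 1.89 and Rpl36a by 1.79, while Rps19 (-0.26) and Rpl18 (-0.20) were not called. Ribosomal protein genes took 5.10% and 4.87% of counts in DMSO RA and 3.41% and 3.14% in dTAG RA. Multi-copy pseudogenes share reads with these genes, so a single member is uncertain, and the share of counts on processed pseudogenes was 0.527% and 0.542% in DMSO RA and 0.445% and 0.434% in dTAG RA.

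Some genes of cell division were lower. Of 22 mitosis genes 5 fell (4 to 17, median -0.69), among them the mitotic kinase gene Plk1 (154 and 165 CPM to 70.2 and 68.4 CPM, -1.20 ± 0.07), Birc5, the chromosomal passenger survivin (-1.17), and the proliferation marker Mki67 (450 and 448 CPM to 215 and 186 CPM, -1.16 ± 0.07). Mki67 was at 353 to 373 CPM in all 4 libraries before RA. Of 22 replication licensing genes, Cdc6 (-1.06) and Mcm6 (-1.05) fell (2 to 8 over the alternatives), a share near the 7.92% of all genes.

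Several genes of RA signalling itself were lower in the depleted cells. Of 23 retinoid pathway genes 7 fell and 2 rose (5 to 8 lower and 2 to 3 higher over the alternatives), and the list median was -0.08 since most members had no call. The carrier Crabp2 was at 3.18 to 4.36 CPM before RA, at 144 and 255 CPM in DMSO RA and at 18.8 and 22.8 CPM in dTAG RA (-3.25 ± 0.17, adjusted p = 4.83e-12). Cyp26a1, the RA hydroxylase, was at 242 and 286 CPM in DMSO RA and at 54.0 and 60.0 CPM in dTAG RA (-2.21 ± 0.09, adjusted p = 7.09e-13). The depleted libraries held 21.6% of the control level of a transcript with at most 2 counts per library before RA. Dhrs3, which reduces retinal, went from 94.3 and 123 CPM to 16.6 and 19.7 CPM (-2.58 ± 0.12) and Stra6, the retinol transporter, from 85.8 and 114 CPM to 21.7 and 20.7 CPM (-2.23 ± 0.12). Rdh11 fell by 2.13 and Cyp26b1 by 1.01 (adjusted p = 0.00934). The Cyp26b1 call was lost in 9 of 16 alternatives, among them without DMSO RA replicate 2 (-0.68), dTAG RA replicate 1 (-0.79) or either dTAG replicate before RA, with DESeq2 (-0.99) and with library size alone (-0.77). The receptor gene Rarb, which has a ZFP143 peak, went from 33.0 and 45.6 CPM to 19.1 and 20.4 CPM (-0.98 ± 0.13, adjusted p = 0.00392), and its call was lost without DMSO RA replicate 2 (-0.74), dTAG RA replicate 1 (-0.91) or dTAG RA replicate 2 (-1.01), with DESeq2 (-0.95) and with library size alone (-0.75). Rara (0.65), Rarg (0.21) and Rxra (0.08) were not called. Aldh1a2, which encodes an RA-making enzyme, rose from 3.17 and 1.68 CPM to 8.81 and 9.29 CPM (1.83 ± 0.21). The other gene called higher, Aldh1a3, entered the test through the dTAG RA libraries only, so it could only be seen to rise.

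The paired receptor sites of Cyp26a1 and Rarb are shown because both genes carry the known response element in the promoter window and both fell. The sequences are from RefSeq (GRCm38.p6), with both copies of GTTCA, spaced by 6 bases, in capitals.
Cyp26a1, chr19:37697746-37697821, minus strand: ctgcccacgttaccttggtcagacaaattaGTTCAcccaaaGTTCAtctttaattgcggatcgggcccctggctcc
Rarb, chr14:16575483-16575558, minus strand: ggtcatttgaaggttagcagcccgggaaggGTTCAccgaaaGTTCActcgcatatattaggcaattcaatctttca
Searched on both strands, the pair was in 2 of the 18 retinoid pathway genes with a window, in 2 of the 6 that fell, and in 25 of all 32851 windows (0.0761%).

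Hox genes differed by paralog group in their calls. Of 38 tested, 10 fell and 7 rose (8 to 16 lower and 1 to 12 higher over the alternatives, 8 and 1 with DESeq2). Of the 12 genes of paralog groups 1 to 4, 5 fell and none rose, and their summed level was 403 and 477 CPM in DMSO RA and 242 and 260 CPM in dTAG RA. Of the 14 genes of groups 5 to 9, 5 fell and none rose (305 and 380 CPM against 181 and 186 CPM). Of the 12 genes of groups 10 to 13, none fell and 7 rose, and their sums were 34.1 and 29.0 CPM in DMSO RA and 72.7 and 65.1 CPM in dTAG RA. Of these 7, 4 (Hoxa11, Hoxc12, Hoxd10 and Hoxd12) exceeded 10 counts in the dTAG RA libraries only, so they could only be seen to rise, and DESeq2 called none of the 4. The Hoxc12 call was lost in 9 of 16 alternatives, among them every fit without 1 library before RA and those without replicate 2 of DMSO RA or dTAG RA. With more than 10 counts required in 4 of the 8 libraries 4 Hox genes rose. The depleted libraries were below both controls in the first 2 groups and above both in the last. Hoxb1, the early hindbrain gene, went from 130 and 152 CPM to 22.9 and 24.6 CPM (-2.56 ± 0.10, adjusted p = 2.28e-13), Hoxc4 from 39.6 and 45.8 CPM to 8.57 in both (-2.31 ± 0.13) and Hoxc5 from 25.9 and 39.3 CPM to 4.78 and 4.67 CPM (-2.77 ± 0.17). Of the genes that fell, 6 were in the Hoxb cluster, and no gene of the Hoxa cluster fell. In the same way Hoxd3, among the genes that fell, exceeded 10 counts in the DMSO RA libraries only, and its call was lost with DESeq2 and without dTAG RA replicate 1. Hoxa11 had 2 and 1 counts in DMSO RA and 33 and 30 counts in dTAG RA, and the most abundant, Hoxc13, went from 12.7 and 9.46 CPM to 31.1 and 27.3 CPM (1.38 ± 0.13).

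**Figure D4:**
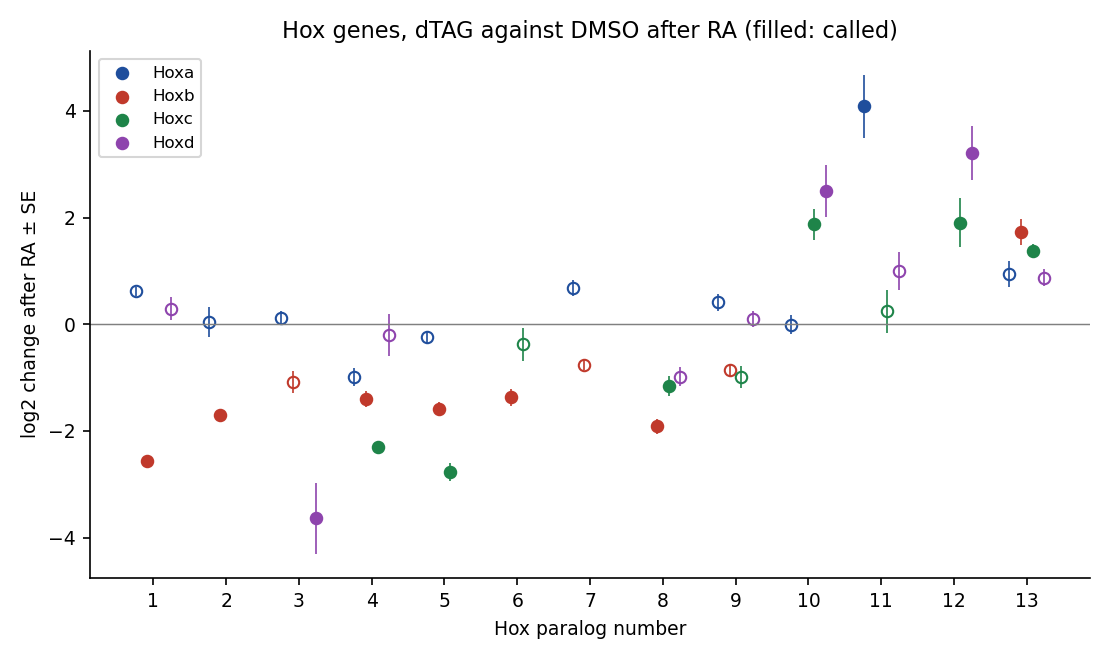
Log2 change of dTAG against DMSO after RA (points, with SE bars) for the 38 Hox genes tested, by paralog number and coloured by cluster, filled where called. Called genes of paralogs 1 to 9 lie below 0 and called genes of paralogs 10 to 13 above 0.

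Other transcription factors induced by RA went both ways. Of 19 tested, 6 fell and 4 rose (5 to 8 lower and 1 to 8 higher over the alternatives, 5 and 1 with DESeq2, and 2 higher without DMSO RA replicate 1, dTAG RA replicate 1 or dTAG RA replicate 2). Tshz1 went from 37.7 and 70.0 CPM to 6.46 and 6.73 CPM (-3.01 ± 0.20), Zfp703 from 230 and 290 CPM to 61.4 and 71.1 CPM (-1.97 ± 0.10), and the Hox cofactors Meis1 and Meis2 fell by 1.78 and 1.47. The 4 that rose were Pax3 (2.98), Cdx2 (1.79), Meis3 (1.27, a call lost with DESeq2 and when DMSO RA replicate 1, dTAG RA replicate 1 or dTAG RA replicate 2 was left out) and Lhx5, which entered the test through the dTAG RA libraries only. DESeq2 did not call Cdx2 or Lhx5 either. The Cdx2 call was also lost without DMSO RA replicate 1, DMSO RA replicate 2 or dTAG RA replicate 1, and the Lhx5 call with the replicate block and without DMSO RA replicate 1 or dTAG RA replicate 2.

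Neural genes were likewise mixed. Of 28 tested, 8 fell and 5 rose (8 to 12 lower and 3 to 10 higher over the alternatives, with 3 higher with DESeq2 and without DMSO RA replicate 1). The median was -0.15, and 0.16 with no filter. With library size alone it was 0.09, but relative to the median of all genes it was -0.15 there as in the main fit. Pax6, a regulator of neural progenitors, was at 48.3 and 53.7 CPM in DMSO RA and 11.9 and 13.6 CPM in dTAG RA and fell by 2.00. Elavl4, an RNA-binding protein of neurons, went from 10.8 and 10.1 CPM to 1.59 and 1.97 CPM (-2.55 ± 0.20), close to its 1.68 to 2.24 CPM before RA. Vim, the intermediate filament gene, fell by 2.18 and Nes by 1.58. The genes that rose were Neurod1, Nkx6-1, Nkx6-2, Zic1 and Dll3, of which Nkx6-2 went from 1.22 and 1.54 CPM to 5.53 and 4.71 CPM (1.92 ± 0.25). The calls of Nkx6-1 and Dll3 were lost with DESeq2 and when replicate 1 of DMSO RA or of dTAG RA was left out. Neurod1, with 5 and 9 counts in DMSO RA and 111 and 128 in dTAG RA, entered the test through the dTAG RA libraries only.

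Part of the naive pluripotency network was higher in the depleted cells after RA. Of 21 genes 9 rose and 1 fell (6 to 13 higher and 1 to 3 lower over the alternatives), with a median of 0.63. Without DMSO RA replicate 1 the median was 1.07 and 12 rose, and without DMSO RA replicate 2 it was 0.47 and 6 rose. Of these 21 genes, none rose before RA and 1 rose and 6 fell at 48 h without RA. The difference from 48 h was more positive for 16 of the 21. Esrrb, an orphan receptor of the naive state, was at 1036 to 1481 CPM before RA, 83.9 and 48.8 CPM in DMSO RA and 391 and 323 CPM in dTAG RA (2.41 ± 0.15, adjusted p = 1.17e-10). The Nodal co-receptor gene Tdgf1 was at 15.2 and 10.4 CPM in DMSO RA and 75.0 and 52.7 CPM in dTAG RA (2.28 ± 0.14), and Klf4 at 36.9 and 17.2 CPM against 77.8 and 64.9 CPM (1.35 ± 0.17), a call that DESeq2 did not make. The groups did not overlap for these 3, and all lay far below their levels before RA. Nanog (50.7 and 28.7 CPM against 49.2 and 43.1 CPM, 0.19 ± 0.14) and Pou5f1 (532 and 341 CPM against 456 and 360 CPM, -0.10 ± 0.13) overlapped between the groups and were not called. Lin28a, an inhibitor of let-7, fell from 178 and 233 CPM to 67.5 and 73.0 CPM (-1.54 ± 0.10). The 2 DMSO RA libraries differed from each other for several of these genes, with replicate 1 the higher. Of 15 formative genes 3 rose (3 to 6 over the alternatives; Foxd3 by 1.61, Etv4 by 1.32, and Otx2, which entered the test through the dTAG RA libraries only) and 3 fell (3 to 4; Zic5 by 1.68, Pou3f1 by 1.56, Zic2 by 1.22).

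Genes of other lineages and early signals were also called. Of 18 mesoderm genes 7 rose and 1 fell (4 to 8 higher and 1 to 3 lower over the alternatives), and 3 of the 7 (Mixl1, Wnt3 and Wnt3a) entered the test through the dTAG RA libraries only. The Mixl1 call was lost with DESeq2 and when replicate 1 of DMSO RA or of dTAG RA was left out. The VEGF receptor gene Kdr rose by 2.60 on the log2 scale and Snai1, an inducer of epithelial to mesenchymal transition, by 1.83 (4.17 and 3.69 CPM to 11.8 and 16.3 CPM), while Meox1, a somite gene, went from 14.6 and 30.8 CPM to 1.26 and 1.93 CPM (-3.79 ± 0.30). Snai1 had fallen before RA by 1.69, and the interaction of 3.52 was called (adjusted p = 2.04e-08). The Nodal feedback genes fell, Lefty1 from 18.6 and 34.5 CPM to 2.34 and 2.06 CPM (-3.55 ± 0.25) and Lefty2 from 11.1 and 11.2 CPM to 2.01 and 2.38 CPM (-2.34 ± 0.15). Of the 23 genes of the signalling list 5 fell and 2 rose (4 to 8 and 1 to 7), the latter a share near the 10.1% of all genes. Of 19 primitive endoderm genes 2 fell and 4 rose (2 lower in every alternative and 2 to 8 higher), beside 7.92% lower and 10.1% higher of all genes, with 2 higher with DESeq2 and when DMSO RA replicate 2 or dTAG RA replicate 1 was left out. Of 10 trophoblast genes 3 rose (2 to 4 higher and 0 to 2 lower), and of 5 fibroblast genes 2 rose (2 to 3). Of 10 genes of the 2-cell-like state 7 rose (4 to 9 over the alternatives), and its 5 markers summed to 1.53 to 6.84 CPM before RA, 42.5 and 42.6 CPM in DMSO RA and 150 and 180 CPM in dTAG RA. Zscan4c went from 10.1 and 8.45 CPM to 41.5 and 47.8 CPM (2.253 ± 0.12). Zscan4 and Dux genes are near-identical copies, so their single values are uncertain.

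Part of the stress genes rose. Of 29 integrated stress response genes 11 rose and none fell (8 to 15 higher and 0 to 4 lower over the alternatives, median 0.60), beside 10 before RA and 14 of 28 at 48 h without RA. The cystine transporter gene Slc7a11 went from 0.651 and 0.872 CPM to 3.84 and 6.42 CPM (2.78 ± 0.31), the mTORC1 inhibitor gene Ddit4 from 49.6 and 62.2 CPM to 203 and 214 CPM (1.91 ± 0.10), and Ppp1r15a, the eIF2 phosphatase subunit, rose by 1.67. Atf4 rose by 0.93, a call lost without DMSO RA replicate 2, and Ddit3 by 1.25, a call that DESeq2 did not make, while the serine synthesis genes Psat1 (-0.60) and Phgdh (-0.52) and the amino acid gene Asns (-0.14) were not called. Of 24 p53 response genes 9 rose (8 to 13, median 0.64), none before RA and 13 at 48 h. Plk2 went from 36.01 and 30.7 CPM to 175 and 154 CPM (2.29 ± 0.09) and Btg2 from 26.02 and 31.6 CPM to 71.5 and 73.0 CPM (1.34 ± 0.09). Fas, the death receptor, rose by 2.79, the cell cycle inhibitor Cdkn1a by 1.08 and Mdm2, the ligase for p53, by 1.05. No gene of the 14 in the unfolded protein response list was called in either direction, and over the alternatives at most 1 was lower and at most 2 higher.

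Of 13 genes tested in the list named after the aryl hydrocarbon receptor, 5 rose and 1 fell (3 to 8 higher and 0 to 3 lower over the alternatives). At 48 h without RA the counts were 6 and 1. They count list members, and activity of the receptor was not tested. Beside Cyp1a1 the genes that rose were Hmox1, Tiparp, Nfe2l2 and Cyp1a2, which entered the test through the dTAG RA libraries only, and Nqo1 fell. DESeq2 called neither Nfe2l2 nor Cyp1a2, the Cyp1a2 call was lost without DMSO RA replicate 1, and that of Nfe2l2 (0.81) without DMSO RA replicate 2, dTAG RA replicate 1 or either dTAG replicate before RA. Hmox1, the heme oxygenase, went from 48.6 and 48.24 CPM to 204 and 207 CPM (2.09 ± 0.08) and Tiparp, a feedback inhibitor of the receptor, from 97.8 and 113 CPM to 271 and 294 CPM (1.43 ± 0.08). Nqo1, a quinone reductase gene with a ZFP143 peak, went from 86.6 and 69.0 CPM to 41.2 and 40.2 CPM (-0.94 ± 0.09), and its call was lost without DMSO RA replicate 1 (-0.76) or dTAG RA replicate 2 (-0.90), with DESeq2 (-0.90) and with library size alone (-0.71). The transferrin receptor gene Tfrc, chosen after its values were seen, was at 412 to 504 CPM in the 4 libraries before RA, at 61.4 and 45.1 CPM in DMSO RA and at 465 and 447 CPM in dTAG RA. The depleted libraries after RA thus held the level seen before RA, and the control libraries alone were low. Its log2 change was 3.08 ± 0.11 (adjusted p = 8.88e-15), 0.07 before RA and 0.00 at 48 h without RA, with a called interaction of 3.02. Of the 17 genes of iron uptake and storage, chosen in the same way, 1 fell and 2 rose (1 to 2 and 2 to 3 over the alternatives), shares near the 7.92% and 10.1% of all genes, with a median of 0.03 beside 0.01 over all genes. Steap3, a ferrireductase, fell by 1.61, and the ferritin genes Fth1 (-0.35) and Ftl1 (-0.85) and the iron exporter gene Slc40a1 (0.88) were not called.

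Many genes that lost nascent RNA within 2 h in stem cells were lower after RA as well. Of the 402 genes lower in TT-seq at 2 h that were tested after RA, 198 (49.3%) were lower after RA, beside 7.91% of the 13901 genes tested in both. This is 18% of the 1100 genes lower after RA that had a TT-seq test, and 1 of the 402 was higher. The 402 became 175, 96 or 97 without TT-seq DMSO replicate 2, 2 h replicate 1 or 2 h replicate 2, of which 107, 66 or 68 were lower after RA. Of the genes with a peak annotation, 188 of 197 (95.4%) had a ZFP143 peak. The 317 genes lower both before and after RA were 54.1% of those lower before RA and 23.9% of those lower after RA. The 138 genes higher in both were 31.9% and 8.14%, and numbered 84, 89 and 76 without DMSO before RA replicate 1, DMSO before RA replicate 2 and dTAG before RA replicate 2. Opposite calls were made for 18 genes that were lower after and higher before RA, and for 15 the other way. Of 13872 genes tested in both, 511 were lower after RA and at 48 h without RA (43.2% and 45.9% of the 2 lists), 513 were higher in both (46.3% and 34.6%), and 35 and 34 had opposite calls. The shared counts were 306 lower and 837 higher with library size alone, and 329 and 243 with DESeq2.

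**Figure D5:**
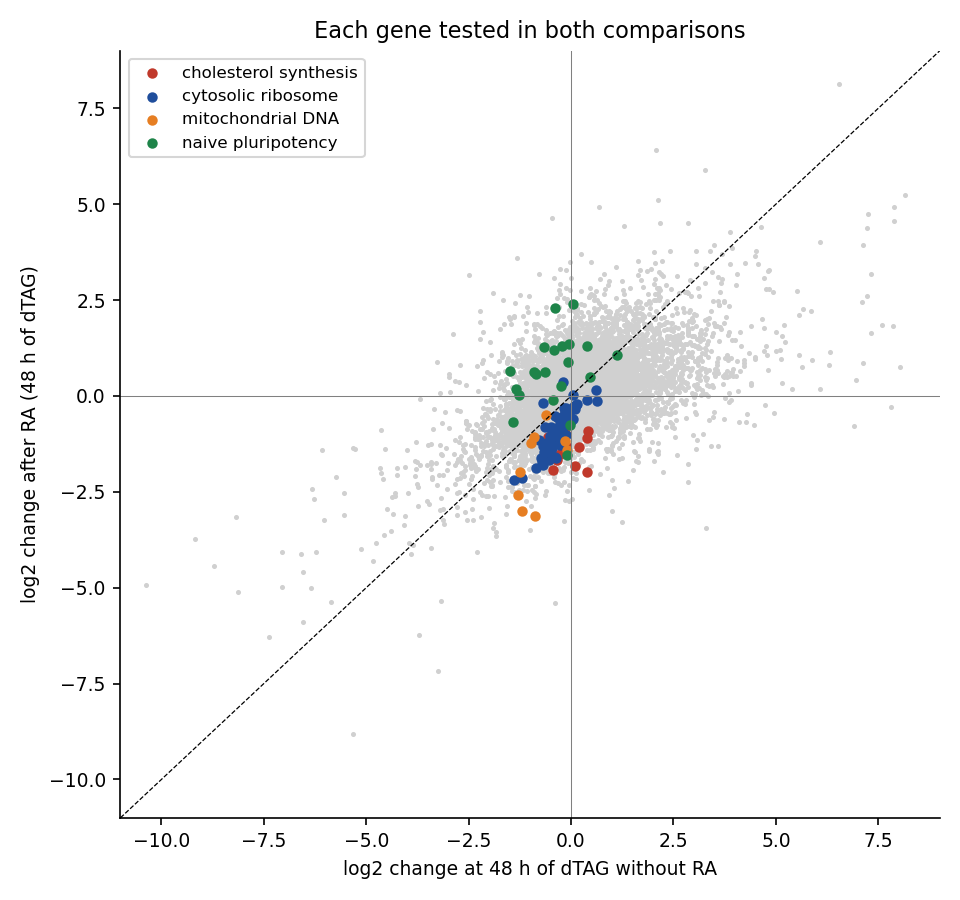
Log2 change after RA (48 h of dTAG, y axis) against log2 change at 48 h of dTAG without RA (x axis), 1 point per gene tested in both, with 4 lists coloured and the line of equal change dashed. Cholesterol synthesis, cytosolic ribosome and mitochondrial DNA genes lie mostly below the line and naive pluripotency genes mostly above it.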

How the data were processed

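RNA-seq of the RA experiment gave 8 libraries, 2 in each of 4 groups, assigned from the sample titles. The deposited tables hold raw counts per gene on mm10, which the authors made with STAR for RNA-seq and with HTSeq for TT-seq. The ZFP143 peak list was deposited with the fold enrichment over input that MACS2 gave. No column of per-sample values was left unused (0). Gene names come from GENCODE vM21, which held 55141 of the 55401 identifiers, and the strand column used for counting is not given in the sources used here.

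Counts were fitted with edgeR 4.0.16 (R 4.3.3, limma 3.58.1) with TMM scaling and a quasi-likelihood model over all 8 libraries. A gene entered when it exceeded 10 counts in 2 or more RA libraries. Depletion was tested with glmTreat against a fold of 1.5 at a Benjamini-Hochberg adjusted p of 0.01. The interaction of RA and depletion, the difference from 48 h without RA (fitted over both RNA-seq tables) and TT-seq used the quasi-likelihood test at an adjusted p of 0.05 and an absolute log2 change of 0.5. P-values measure the spread between these samples. Totals after RA were at least 13890761 counts, genes with few counts carry counting error on top of the replicate spread, and no libraries held identical values. A promoter was bound when a peak centre lay within 2000 bp of a transcript start. The shares of bound genes among those that fell and those that rose after RA carry 95% Wilson intervals, which cover counting error only. Other shares are given without an interval. DESeq2 1.42.0, other scalings, filters and peak rules, the replicate number as a block and each library left out were the alternatives. Scripts were tested on simulated data, and tables were joined with Python 3.11.15 and pandas 2.3.3.

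Named genes were Zfp143, the 10 greatest called decreases and increases (mean count of at least 100, no Gm symbols), the 5 most negative and positive called interactions, up to 3 called genes per list and direction (mean count of at least 50), and Cyp26a1, Rarb, Hoxb1, Nanog, Pou5f1 and Tfam. Some genes that this rule names are not reported here. Other list members are named as examples and were chosen after their values were seen. The members and the 31 lists were chosen with earlier results of these data known. The iron list, with Tfrc, Steap3, Fth1, Ftl1 and Slc40a1, was added after values were seen, and the motif letters were chosen after several forms had been counted in the peaks.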

Additional observations from a re-analysis of the deposited data

Results flagged for a closer look

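Each named gene below has an effect of dTAG that differed between before and after RA by the interaction test of edgeR (adjusted p under 0.05, log2 difference above 0.5), given as the log2 effect after RA minus that before RA. RA, medium and time of depletion cannot be told apart in it. For Hoxb8 and Moxd1, with 0 counts in both DMSO libraries before RA, the fitted value depends on the prior count and is neither an exact difference nor a bound.

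Among the RA response and Hox genes the difference was -5.90 for Hoxb8 (0, 0, 1 and 3 counts before RA), -4.18 for Hoxaas3 (1, 0, 2 and 5 counts before RA, and uncertain as an antisense gene counted with an unstated strand setting), -2.73 for Hoxc5, -2.19 for Hoxc4 and 1.52 for Hoxc13. It was -3.79 for Tshz1, -3.60 for Dhrs3, -3.50 for Stra6 (1 and 4 counts in DMSO before RA), -3.23 for Crabp2, -2.16 for Zfp703 and -1.85 for Rarb, and 2.00 for Meis3 and 1.24 for Aldh1a2.

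Among signalling and lineage genes it was -3.17 for Lefty1, -2.07 for Lefty2 and 0.63 for Spry2. It was -3.06 for Meox1, -2.60 for Foxc2 (1 and 1 counts in DMSO before RA) and 3.52 for Snai1. It was -2.34 for Dab2, -1.14 for Rhox5, 3.34 for Gata2, 2.76 for Thy1 and 1.29 for Zscan4c. Neural genes gave -2.65 for Elavl4, -1.42 for Vim, 1.65 for Nkx6-2 and 3.28 for Neurod1. Pluripotency genes gave 2.81 for Esrrb, 1.98 for Tdgf1, 1.53 for Klf4, 2.097 for Foxd3, 1.50 for Etv4, -1.27 for Lin28a, -1.90 for Pou3f1, -1.29 for Zic5 and -0.90 for Zic2.

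For metabolism it was -2.16 for Lss, -2.097 for Fdps, -1.53 for Hmgcs1, -1.99 for Aldoa, -1.67 for Pgk1, -1.28 for Tpi1 and 0.70 for Eno2. Mitochondrial genes gave -2.75 for mt-Co1, -2.51 for mt-Nd6, -2.05 for mt-Nd5, -1.81 for Ndufa4l2, -1.62 for Guf1, -0.57 for Mrpl54 and -0.54 for Atp5j2, and on the positive side 0.58 for Timm13, 0.66 for Mrpl34, 0.90 for Cox7c, 1.06 for Timm21, 1.31 for Mrps25 and 1.38 for Clpb. Ribosomal and dividing-cell genes gave -1.94 for Rps25, -1.73 for Rpl37a, -1.38 for Rps29, -1.11 for Mki67, -0.74 for Cdc6, -0.67 for Mcm6 and -0.54 for Plk1.

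Stress and iron genes gave 4.96 for Cyp1a1, 2.24 for Hmox1, 1.61 for Tiparp, 1.86 for Plk2, 1.34 for Ppp1r15a, 1.21 for Ddit4, 1.08 for Btg2, 3.02 for Tfrc, -2.18 for Steap3 and -1.32 for Slc40a1. Among imprinted, immune, matrix and lysosomal genes it was -2.99 for Nnat, -1.94 for Mest, -1.05 for Peg10, 0.83 for Plagl1, 1.50 for Impact, -2.25 for H2-K1, -1.08 for Bst2, -0.84 for Tapbp, -1.70 for Col18a1, -1.69 for Mitf, 1.83 for Hexa and 3.02 for Gpnmb. Of the genes that changed most or interacted most, the remaining values were -4.86 for 1500009C09Rik, -4.29 ± 1.62 for Moxd1 (0 and 0 counts in DMSO and 4 and 6 in dTAG before RA), 1.67 for Mmachc, 1.93 for Mpi, 2.18 for Car6, 2.59 for Mroh4, 2.95 for Bhlhe41, 3.03 for Miat, 3.87 for Pomgnt2, 4.09 for Usp40 and 4.23 for Cd80.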

How the results depend on the processing

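No called change of a named gene reversed its direction under the alternatives run. Which of the counts lower and higher was larger changed after RA (800 lower and 797 higher with DESeq2), before RA (481 and 617 with library size alone, 1330 and 2301 with the quasi-likelihood thresholds) and in the interaction (2409 more negative and 2583 more positive with library size alone). The medians of 9 of the 32 lists, all within 0.15 of 0 on the log2 scale in the main fit, changed sign under some alternative. RA-induced transcription factors moved most, from 0.07 to -0.49 with more than 10 counts required in 4 of the 8 libraries. Others were signalling (0.19 without DMSO RA replicate 1), primitive endoderm (-0.06 without dTAG RA replicate 1) and neural genes (0.16 with no filter). Medians that changed sign with library size alone stayed below the median of all genes, which that scaling moved to 0.24. Of the log2 changes of the 138 named genes after RA over 16 alternatives, 2150 kept their call, 48 lost it and 10 gained it. Of their interactions 1844 kept the call, 62 lost it and 26 gained it, and 470 list medians moved by less than the replicate spread and 42 by more. Genes lower after RA numbered 815 with library size alone and 3205 with the thresholds, and genes higher 3737 with the thresholds. Before RA DESeq2 gave 138 higher, and leaving out 1 library gave 226 to 478 higher. At 48 h without RA library size alone gave 736 lower and DESeq2 779 higher. In TT-seq leaving out 1 library gave 102 to 292 lower and 10 to 35 higher. The bound share of lower genes was 36.3% with DESeq2, 23.7% with the thresholds and 25.2% with peaks of at least 20-fold, and that of higher genes 6.27% with DESeq2, 3.78% within 500 bp and 3.19% with such peaks. Genes lower both after and before RA numbered 708 with the thresholds, and genes higher in both 242 with library size alone, 43 with DESeq2, 969 with the thresholds and 76 to 139 with 1 library left out. Genes lower after RA and at 48 h numbered 306 with library size alone and 329 with DESeq2, and genes higher in both 837, 243 and, with the thresholds, 843. Unless the construction of an alternative shows it, the cause was not tested.

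The deviations of same-numbered libraries correlated at 0.24 between DMSO RA and dTAG RA and at -0.171 to 0.0831 between the other groups of the RA table (12654 genes, which are not independent), at 0.0826 between DMSO and 48 h of the time course and at 0.323 between DMSO and 2 h of TT-seq. The pairing was thus not held to be shown by the numbers, and no source used here says that they mark a shared batch or day. With the replicate number as a block, 1319 genes were lower and 1657 higher after RA, 577 and 397 before RA, 3040 and 2100 in the interaction, 1114 and 1467 at 48 h, and 2494 and 2196 in the difference from 48 h. In TT-seq the block gave 662 lower and 87 higher.

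With 2 libraries per group and 4 residual degrees of freedom, a missing call does not show that a gene was unaffected. The RA libraries differ in depth, and genes with few counts in DMSO RA carry wide errors. Peaks come from stem cells.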

Other observations

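Imprinted genes, which are expressed from 1 parental allele, were often lower in the depleted cells after RA. Of 22 tested, 10 fell and 4 rose (8 to 11 and 1 to 6 over the alternatives), with a median log2 change of -0.40 (0.01 over all genes), and 2 rose without DMSO RA replicate 1 and 1 without dTAG RA replicate 2. Peg10, a retrotransposon-derived gene with a ZFP143 peak, was at 27.0 and 25.6 CPM in DMSO before RA, at 930 and 1459 CPM in DMSO RA and at 61.3 and 80.2 CPM in dTAG RA (-4.08 ± 0.16, edgeR glmTreat adjusted p = 1.95e-14). It fell before RA too, by 3.03. Nnat fell by 3.72, Mest by 1.97, H19 by 1.87 and Peg3 by 1.31 on the log2 scale.

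Of 21 lysosome genes 4 rose and 1 fell (2 to 8 and 0 to 1 over the alternatives), among them Gpnmb and Hexa, a subunit of beta-hexosaminidase (1.31), with 2 higher without DMSO RA replicate 2, and Mitf, a regulator of lysosome and pigment genes, fell by 1.39, a call lost without DMSO RA replicate 1 (-1.12) or dTAG RA replicate 2 (-1.17). Of 13 genes of interferon and MHC class I, Bst2 (-1.12), Tapbp (-1.02) and H2-K1 (-0.82) fell and Cd80 and Tap1 (1.25) rose (1 to 6 lower and 2 to 5 higher over the alternatives). H2-K1 had risen by 1.43 before RA, and its call after RA was lost in 5 alternatives. Of 19 basement membrane and collagen genes, Col18a1 (584 and 618 CPM to 226 and 210 CPM, -1.46 ± 0.07) and P4ha1 (-0.94) fell and Sparc (0.87) rose (1 to 2 lower and 0 to 3 higher), beside 7.92% lower and 10.1% higher of all genes. The Sparc call was lost without DMSO RA replicate 2 or dTAG RA replicate 1.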
